A study of Mus musculus with 2 samples.

Results

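The Hox and Cdx genes of the mouse were examined in single cells of *Gata1*- chimeric embryos. All genes in the deposited spliced table whose symbol is Hoxa, Hoxb, Hoxc or Hoxd followed by a number were taken, together with *Cdx1*, *Cdx2* and *Cdx4*, while antisense and opposite-strand genes were left out. This gave 42 members, 39 Hox and 3 Cdx genes, of 29453 genes in the table. Male embryonic stem cells that express tdTomato from the *ROSA26* locus, 1 clone with a 38 base-pair frameshift in exon 4 of *Gata1*, had been injected into C57BL/6 E3.5 blastocysts. The 6 chimeric embryos were pooled and sorted into tdTom+ cells, which carry the *Gata1* mutation, and tdTom- cells of the unmodified host. Each fraction gave 1 library, so the *Gata1* genotype, the cell line, the sex and the library cannot be told apart between them. The label of the tdTom+ sample gives the age as E8.5 and that of the tdTom- sample as E8.6. The titles of both samples name E8.5, and both fractions came from the same pooled embryos. With 1 library for each fraction, all differences between fractions below are differences between 2 libraries, without a test.

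Hox genes encode homeodomain transcription factors that give cells their position along the head-to-tail axis. They lie in 4 genomic clusters, and within a cluster genes with low paralog numbers are switched on earlier and reach further towards the head than genes with high numbers. The Cdx genes encode caudal-type homeodomain factors that act in the growing tail end of the embryo, where WNT and FGF signals are high, and are required to switch on central and posterior Hox genes. *Cdx2* also acts in the trophectoderm lineage and in the intestine. In adult blood and leukaemia, HoxA and HoxB genes are known for roles in stem and progenitor cells.

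In the genome build of the reads (mm10, GRCm38), the HoxA members lie on chromosome 6 between positions 52155590 and 52260880 (11 genes in 105 kb). HoxB lies at 96194316 to 96368256 of chromosome 11 (10 genes in 174 kb), HoxC at 102921103 to 103036852 of chromosome 15 (9 genes in 116 kb) and HoxD at 74668310 to 74765142 of chromosome 2 (9 genes in 96.8 kb). Of the Cdx genes, *Cdx2* is at 147300805 to 147307270 of chromosome 5 and *Cdx4* is at 103321398 to 103330592 of chromosome X. RefSeq promoter windows of GRCm38.p6, from 250 bases before to 50 bases after a start, were matched for 24 members with 26 windows. The median window of a member held 14.5 CpG dinucleotides and 57.3% G and C, against 7 and 52.7% over 32851 windows of 27025 genes. The letters TTTATG, part of the site that Cdx factors bind, were found on either strand in 5 member windows (19.2%, against 11.9% of all windows). AGGTCA, the half-site of the retinoic acid receptors, was found in 7 (26.9%, against 16.3%), and TGATTGAT, to which Pbx and Hox proteins bind together, in 2 (7.69%, against 0.746%). The 3 strings were counted separately, and a match is a description of letters, not a binding site.

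The 250 bases before the start of 3 members are shown, because their levels are described below: a Cdx gene and a central Hox gene that were highest in neuromesodermal progenitor-like cells, and a terminal Hox gene that was highest in allantois-like cells. They are written 5′ to 3′ on the strand of the gene, and capitals mark TTTATG or its reverse complement.
Cdx4, chrX:103321148-103321397, plus strand: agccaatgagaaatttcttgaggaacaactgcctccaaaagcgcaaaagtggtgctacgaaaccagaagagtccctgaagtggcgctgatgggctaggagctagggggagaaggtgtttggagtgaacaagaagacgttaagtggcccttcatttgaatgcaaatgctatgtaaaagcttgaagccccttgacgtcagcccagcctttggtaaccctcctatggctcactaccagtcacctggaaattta
Hoxb8, chr11:96281655-96281904, plus strand: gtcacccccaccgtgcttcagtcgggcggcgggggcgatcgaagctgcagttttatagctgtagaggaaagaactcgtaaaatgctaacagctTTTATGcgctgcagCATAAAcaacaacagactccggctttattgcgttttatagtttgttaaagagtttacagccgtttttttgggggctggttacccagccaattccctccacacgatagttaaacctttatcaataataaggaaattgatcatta
Hoxa13, chr6:52260881-52261130, minus strand: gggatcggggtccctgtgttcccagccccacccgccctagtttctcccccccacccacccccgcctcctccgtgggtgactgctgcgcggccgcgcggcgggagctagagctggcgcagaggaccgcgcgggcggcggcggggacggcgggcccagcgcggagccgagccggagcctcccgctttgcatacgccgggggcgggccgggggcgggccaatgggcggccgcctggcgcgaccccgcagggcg
The *Hoxb8* stretch held 2 matches, which began 157 and 143 bases before the start, and 12 CpG dinucleotides. The *Hoxa13* stretch held 35 CpG dinucleotides and the *Cdx4* stretch 5, and neither held a match.

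The tables held 8981 tdTom+ and 9252 tdTom- barcodes with 167940767 and 157174026 spliced UMIs (molecules counted once by their unique identifier), and 18 barcodes occurred in both libraries. *Xist*, the RNA of the inactive X chromosome, was at 3.32 CPM (spliced UMIs scaled to the same total in every group) in the male tdTom+ library and at 278 CPM in the other, and *Gata1* at 6.73 and 29.3 CPM. UMIs of *Gata1* count the 3′ end of the transcript, which the frameshift does not remove, so their level does not measure loss of the protein. The cells were clustered without the 42 members, so that the groups do not rest on them, and 8588 tdTom+ and 8715 tdTom- cells were kept after called doublets and 1 cluster made up mostly of them had been left out. Groups are called after the markers they express, as X-like cells, and clusters that no marker list named are given by number and leading genes. Cluster 1, the largest unnamed one, was led by *Osr1*, *Lhx1* and *Prrx1*.

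Of the 42 members, 34 had at least 100 spliced UMIs in the kept cells, and 27 of these were highest in the same group of cells in both libraries. Of all 13700 genes with as many UMIs, 33.4% were. Groups were ranked where that library held at least 50 of their cells, so blood progenitor-like and erythroid-like cells, among others, were not ranked in both libraries. A gene highest in such a group could not agree between the libraries, which holds the share over all genes down. Neuromesodermal progenitor-like cells, the bipotent cells of the tail bud that form spinal cord and somites, were the highest group for 9 of the 34 members in tdTom+ and 11 in tdTom- cells (2.87% and 2.08% of all genes). Allantois-like cells, the bud of the future umbilical cord, were the highest for 11 and 10 (5.99% and 3.06%), and presomitic mesoderm-like cells for 5 and 3 (3.09% and 1.92%). These counts are a description, since for only 17 of the 34 members was the first group apart from the second beyond counting error in both libraries.

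**Figure D1:**
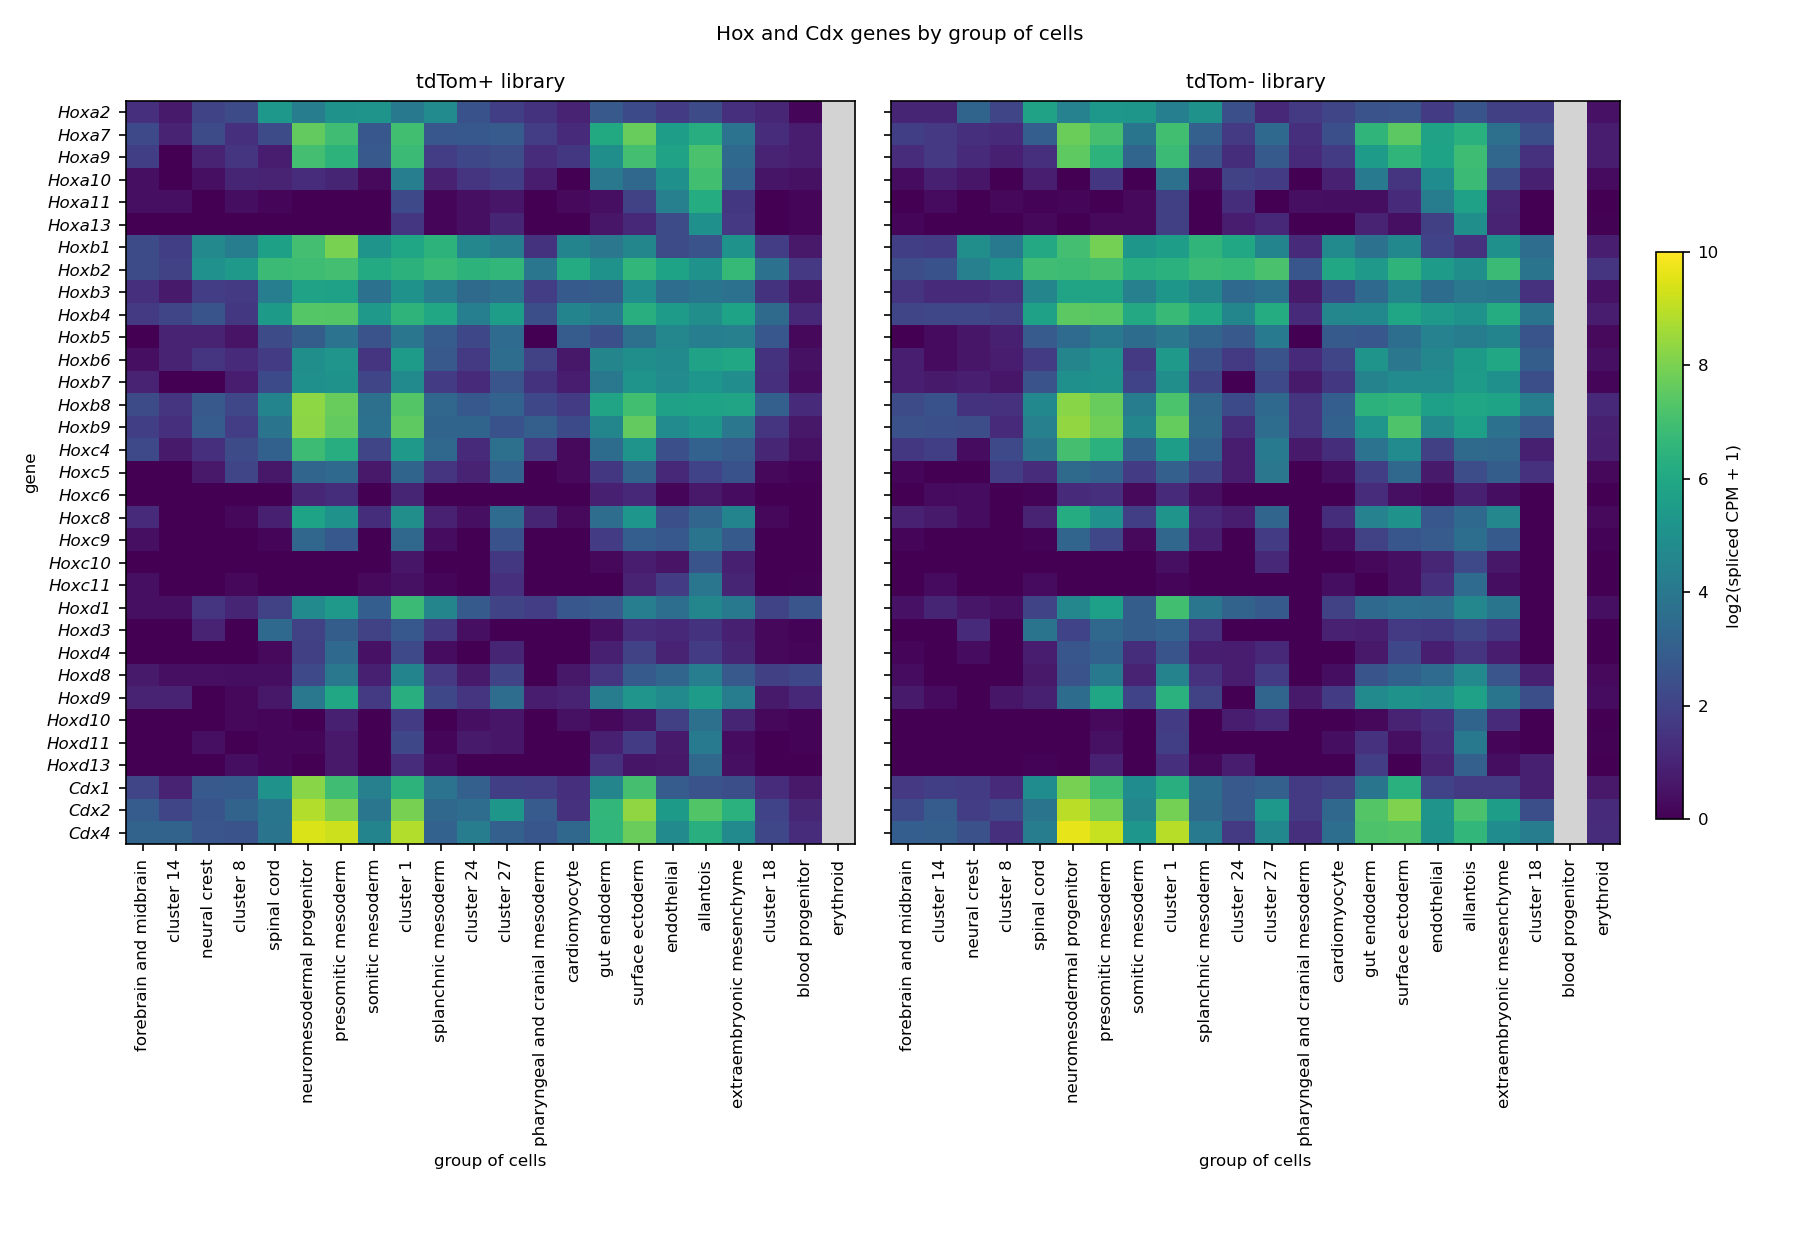
Level of 33 members with at least 100 spliced UMIs (rows) in groups of cells (columns), tdTom+ library on the left and tdTom- library on the right. The colour gives log2(spliced CPM + 1), and grey marks groups with fewer than 50 cells in that library. The 3 Cdx genes, *Hoxb8* and *Hoxb9* are brightest in neuromesodermal progenitor-like cells of both panels, and *Hoxa10*, *Hoxa11* and *Hoxa13* are brightest in allantois-like cells, where *Hoxa10* reached 125 and 111 CPM.

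The Cdx genes were highest in neuromesodermal progenitor-like cells in both libraries. *Cdx4* was at 698 CPM there in tdTom+ cells (679 to 717, exact Poisson 95% interval, which covers counting error only), and in tdTom- cells it stood at 800 CPM (780 to 820). Presomitic mesoderm-like cells followed with 599 and 567 CPM, the unnamed cluster 1 with 465 and 490, and surface ectoderm-like cells with 207 and 156. The intervals of progenitor-like and presomitic mesoderm-like cells did not overlap in either library. *Cdx2* was at 462 CPM (447 to 478) in tdTom+ and 500 CPM (484 to 516) in tdTom- neuromesodermal progenitor-like cells, ahead of surface ectoderm-like cells at 323 and 264 CPM. *Cdx1* was at 296 and 247 CPM in the progenitor-like cells, above surface ectoderm-like cells at 130 and 79.7 CPM and presomitic mesoderm-like cells at 122 and 119 CPM.

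Beyond the tail bud the 3 Cdx genes differed in where they were found. Allantois-like cells held *Cdx2* at 154 and 140 CPM and *Cdx4* at 78.6 and 98.1 CPM, while *Cdx1* was at 4.86 and 2.23 CPM there. Gut endoderm-like cells held all 3, and *Cdx2* stood at 97.1 and 160 CPM there. Notochord-like cells, only 45 and 39 in number, held *Cdx2* at 306 CPM (262 to 355) and 358 CPM (307 to 414). In the 76 extraembryonic ectoderm-like cells of the tdTom- library, a trophoblast lineage, *Cdx2* was at 52.2 CPM (42.6 to 63.3). In spinal cord-like cells *Cdx1* was at 34.2 and 28.3 CPM, *Cdx2* at 13.8 and 13.5 CPM and *Cdx4* at 13.4 and 17.5 CPM. Since UMIs are taken from the 3′ end, such values are compared for 1 gene across groups, and no order of levels between genes is read from them.

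At the level of single cells, nearly all progenitor-like cells held Cdx UMIs. After thinning of each cell to 5000 spliced UMIs, *Cdx2* was detected in 86.7% of 406 tdTom+ and 88.5% of 468 tdTom- neuromesodermal progenitor-like cells (98.3% and 96.7% before thinning). The share was 4.65% and 1.57% in forebrain and midbrain-like cells, which lie in front of the Hox domain and serve here as the level of free RNA and misassigned cells. Before thinning the medians were 16918 and 15376.5 spliced UMIs in the progenitor-like and 17198 and 16301 in the forebrain and midbrain-like cells. Thinned progenitor-like cells held UMIs of a median of 8 members each in both libraries, and 0 of them had none. Presomitic mesoderm-like cells held 8 and 7, cluster 1 held 7 and 7, surface ectoderm-like cells 6 and 5 and allantois-like cells 4 and 4. In forebrain and midbrain-like cells the median was 0, and 86.6% and 88.8% of cells held none.

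Members of paralog groups 1 to 4, which pattern the hindbrain and neck region, peaked in different groups of cells. *Hoxb1*, which specifies a segment of the hindbrain, was highest in presomitic mesoderm-like cells at 254 CPM (240 to 268) and 238 CPM (226 to 252), and reached 127 and 129 CPM in neuromesodermal progenitor-like cells. *Hoxa2*, known from the branchial arches and hindbrain, was highest in spinal cord-like cells at 39.6 and 53.8 CPM. In tdTom+ cells that level did not separate from somitic mesoderm-like cells at 35 CPM, since the interval of their ratio held 1. Within the spinal cord-like class, *Hoxa2* was at 47.7 and 76.3 CPM in cluster 13 and at 35.9 and 43.1 CPM in cluster 3. Levels of other members go against the name of cluster 13, as described below. *Hoxd1* stood apart from its paralogs, with its highest level in cluster 1 at 110 CPM (104 to 117) and 125 CPM (118 to 131), against 40.5 and 48.6 CPM in presomitic mesoderm-like cells. *Hoxb4*, which marks the posterior hindbrain onward, was at 162 and 175 CPM in neuromesodermal progenitor-like and at 159 and 167 CPM in presomitic mesoderm-like cells, and these neighbours did not differ beyond counting error.

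*Hoxb2* was above the forebrain and midbrain level in both libraries in splanchnic mesoderm-like cells at 108 and 111 CPM, in extraembryonic mesenchyme-like cells at 104 and 112 CPM, and in cardiomyocyte-like cells at 70.1 and 60.5 CPM. The 2 cardiomyocyte-like clusters differed in their HoxB levels. Cluster 26, led by *Csrp3* and *Myl4*, held *Hoxb1* at 55.3 and 68.7 CPM, *Hoxb2* at 172 and 144 CPM and *Hoxb4* at 55.3 and 62.7 CPM. Cluster 22, led by *Myl3* and *Actc1*, held the same genes at 2.09 and 4.84, 11.6 and 17.6, and 2.98 and 3.52 CPM. Neural crest-like cells held only *Hoxb1* and *Hoxb2* above the forebrain and midbrain level, at 25.2 and 29.9 CPM and at 32.7 and 19.7 CPM.

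The neural tube clusters also differed in their Hox genes. Cells of cluster 3, led by *Crabp2* and *Fgfbp3*, held *Hoxb4* at 61.1 and 74.0 CPM and *Hoxb8* at 30.1 and 34.6 CPM. Cluster 13, led by *Stmn2* and *Ptn*, held the same genes at 2.63 and 5.02, and at 3.8 and 4.06 CPM. The 2 tdTom- levels of *Hoxb4* and *Hoxb8* in cluster 13 had intervals that overlap those of tdTom- forebrain and midbrain-like cells, at 3.23 CPM (2.09 to 4.76) and 3.87 CPM (2.61 to 5.53). By contrast, *Hoxb1* at 62.9 and 90.4 CPM, *Hoxb2* at 109 and 133 CPM and *Hoxa2* at 47.7 and 76.3 CPM were present in cluster 13. *Hoxa2* was at 35.9 and 43.1 CPM in cluster 3, below its levels in cluster 13. Both clusters were named spinal cord-like by the same marker rule, and the levels of *Hoxb4* and *Hoxb8* in cluster 13 go against that name, so values of the class are sums over unlike clusters.

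Central members, groups 5 to 8, which pattern the trunk, peaked in different groups. *Hoxb8*, which has a known part in trunk and haematopoietic development, was at 312 CPM (300 to 326) and 299 CPM (287 to 312) in neuromesodermal progenitor-like cells, above presomitic mesoderm-like cells at 203 and 204 CPM. *Hoxa7* was at 195 and 213 CPM in the progenitor-like and at 203 and 180 CPM in surface ectoderm-like cells. The order of these groups was not the same in the libraries, and in tdTom+ cells the interval of their ratio held 1. *Hoxb6* had its highest spliced level in extraembryonic mesenchyme-like cells at 60.4 and 60.5 CPM, against 30.5 and 22.7 CPM in neuromesodermal progenitor-like cells. With spliced and unspliced UMIs counted together, in both the gene and the total, the order turned, at 59.9 CPM (55.8 to 64.2) and 59.5 CPM (54.3 to 65.0) against 75.6 CPM (69.8 to 81.7) and 78.5 CPM (72.8 to 84.5). *Hoxb5* was at 23.9 and 20.6 CPM in endothelial-like and 19.5 and 21.6 CPM in extraembryonic mesenchyme-like cells, and the interval of their ratio held 1 in tdTom- cells.

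Within the endothelial-like cells, cluster 28, led by *Lyve1* and *Selenop*, held HoxB genes up to *Hoxb8*. *Hoxb4* was at 82.9 and 73.7 CPM, *Hoxb5* at 70.5 and 54.7 CPM and *Hoxb8* at 84.5 and 89.2 CPM there, while *Hoxb9* was at 4.65 and 7.14 CPM. *Hoxa9* was at 0.775 CPM (1 UMI) and 16.7 CPM (14 UMIs), *Hoxa10* at 1.55 and 1.19 CPM, and *Hoxa11* had 0 UMIs in both libraries. Cluster 6, led by *Etv2* and *Kdr*, held *Hoxb4* at 36.8 and 36.9 CPM, *Hoxb5* at 16.2 and 15.2 CPM, *Hoxb8* at 47.0 and 42.2 CPM and *Hoxb9* at 30.8 and 27.7 CPM. There *Hoxa9* was at 61.9 and 61.1 CPM, *Hoxa10* at 36.3 and 32.6 CPM and *Hoxa11* at 22.4 and 20.2 CPM.

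Among the posterior members, groups 9 to 13, those of group 9 peaked in different groups of cells. *Hoxb9* was at 303 CPM (290 to 316) and 328 CPM (315 to 341) in neuromesodermal progenitor-like and at 193 and 228 CPM in presomitic mesoderm-like cells. *Hoxa9* was shared between progenitor-like cells at 129 and 181 CPM and allantois-like cells at 140 and 119 CPM. *Hoxd9* was highest in cluster 1 at 76.7 CPM (71.7 to 81.9) and 81.9 CPM (76.8 to 87.3).

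From group 10 on, every member with at least 100 UMIs was highest in allantois-like cells of the tdTom+ library. *Hoxa10* was at 125 and 111 CPM there, at 31.4 and 28.3 CPM in endothelial-like cells, and at 1.38 and 0 CPM in neuromesodermal progenitor-like cells. *Hoxa11* was at 72.2 CPM (67.4 to 77.2) and 52.0 CPM (46.3 to 58.2) in allantois-like cells, and *Hoxa13*, a gene required for the umbilical vessels, at 31.8 CPM (28.7 to 35.2) and 30.4 CPM (26.1 to 35.2). Of *Hoxa13*, 0 UMIs were counted in 417 tdTom+ and 486 tdTom- neuromesodermal progenitor-like cells, which allows levels of up to 0.414 and 0.383 CPM (3 counts, a one-sided limit for a count of 0). *Hoxc11* was at 14.3 and 10.3 CPM in allantois-like cells, *Hoxd11* at 17.1 and 15.3 CPM and *Hoxd13* at 9.04 and 7.38 CPM. *Hoxd10* was at 12 and 8.23 CPM there, and its nominal highest group in tdTom- cells, the primordial germ cell-like cells, rested on 1 UMI among cells with a median of 1111 spliced UMIs. Members with almost no UMIs were *Hoxd12* (2 in all barcodes), *Hoxc12* (5), *Hoxc13* (33) and *Hoxb13* (37), and the other 4 with fewer than 100 in the kept cells were *Hoxa3*, *Hoxa4*, *Hoxa5* and *Hoxa6*, most of whose UMIs are missing from the layers.

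The remaining members were highest in some of the same groups. *Hoxc4* was highest in neuromesodermal progenitor-like cells at 115 and 133 CPM, ahead of presomitic mesoderm-like cells at 74.6 and 83.4 CPM. *Hoxc8* was also highest there, at 54.3 and 71.6 CPM. *Hoxb3* was at 53.2 and 57.0 CPM in progenitor-like and 52.5 and 55.9 CPM in presomitic mesoderm-like cells, which did not differ beyond counting error. *Hoxb7* was highest in allantois-like cells at 37.1 and 43.7 CPM, and in the tdTom+ library its ratio to surface ectoderm-like cells at 34.9 CPM had an interval that held 1. Allantois-like cells and cluster 1 shared *Hoxd8*, at 18.6 and 25 CPM and at 21.7 and 21.4 CPM, without a difference beyond counting error in either library. *Hoxc9* was highest in allantois-like cells at 13.2 and 11.1 CPM, and so was *Hoxc10* at 5.12 and 3.60 CPM. *Hoxd3* was highest in spinal cord-like cells at 9.74 and 13.5 CPM, and *Hoxd4* in presomitic mesoderm-like cells at 9.71 and 7.50 CPM. The ratio to the next group had an interval that held 1 for *Hoxc10* in both libraries, for *Hoxd3* in tdTom+ cells, and for *Hoxc9* and *Hoxd4* in tdTom- cells. *Hoxc5* was at 9.71 CPM in tdTom+ presomitic mesoderm-like cells and at 14.6 CPM (12 UMIs) in tdTom- cells of cluster 27. Neither group was apart from the next beyond counting error. *Hoxc6* was at or under 1.61 CPM in its highest group, which was not apart from the next in either library. Most UMIs of *Hoxc6*, *Hoxc8*, *Hoxc9*, *Hoxc10* and *Hoxd4* are missing from the layers, as described below. The part missing in each group is not known, so the levels and highest groups of these genes describe the layers only.

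Counted against the forebrain and midbrain level, a member was taken as above it where its CPM was at least 2-fold higher in both libraries, with a lower bound of the ratio above 1 and at least 10 UMIs. In the groups of the tail bud, 25 of 42 members were above it in neuromesodermal progenitor-like cells (3.8% of all genes tested) and 25 in presomitic mesoderm-like cells (4.73%). The highest paralog number above it was 9 in both. Cluster 1 had 31 members above (5.06%) and allantois-like cells 30 (10.7%), both up to number 13. Gut endoderm-like cells had 24 (10.9%), endothelial-like cells 23 (12.9%), surface ectoderm-like cells 23 (8.44%) and extraembryonic mesenchyme-like cells 21 (13.1%). In spinal cord-like cells 16 members were above (2.52%), in splanchnic mesoderm-like cells 16 (6.52%) and in somitic mesoderm-like cells 15 (5.13%), with 9 as the highest number in each.

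In other groups fewer members were above. Pharyngeal and cranial mesoderm-like cells had 0 members above (6.12% of all genes) and cluster 14, led by *En1* and *Pax5*, had 0 (1.52%). Neural crest-like cells had 2 (2.91%), cardiomyocyte-like cells 5 (13%), cluster 24, led by *Lefty2* and *Isl1*, 6 (8.43%), and cluster 8, led by *Dlx5* and *Epcam*, 4 (6.02%). The shares of the 42 members in neural crest-like and cardiomyocyte-like cells are near those of all genes. In cluster 18, led by *Fcer1g* and *Spi1*, genes of myeloid blood cells, *Hoxb2* at 12.5 and 13.6 CPM and *Hoxb4* at 9.84 and 13.6 CPM were above (11.5%), and in cluster 27, led by *Tac2* and *Wnt6*, 9 members were (14.7%). In the forebrain and midbrain-like cells themselves *Cdx4* was at 8.18 CPM (5.29 to 12.1) and 6.97 CPM (5.24 to 9.10).

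In the blood progenitor-like and erythroid-like cells, almost all members were near 0. Of the *Gata1*- blood progenitor-like cells (1296 cells, tdTom+), most members were at or under 2.12 CPM, the level of *Hoxb2*, and the same was so for the 1409 host erythroid-like cells at 1.83 CPM or less. The exceptions were 2 HoxD genes in the blood progenitor-like cells. *Hoxd1* was at 5.29 CPM (4.48 to 6.20, 152 UMIs) and *Hoxd8* at 3.48 CPM (2.83 to 4.23, 100 UMIs) there. In host erythroid-like cells they were at 0.330 CPM (9 UMIs) and 0.183 CPM (5 UMIs), and in tdTom+ forebrain and midbrain-like cells at 0.327 CPM (1 UMI) and 0.654 CPM (2 UMIs). The fractions held different blood cells, with 3 tdTom- blood progenitor-like and 2 tdTom+ erythroid-like cells, so stage and genotype cannot be told apart in these values. Cluster 18 held cells of both fractions. *Hoxd1* was at 3.17 CPM (20 UMIs) in its tdTom+ cells and had 0 UMIs in its 66 tdTom- cells. *Hoxd8* was at 2.70 CPM (17 UMIs) and 0.849 CPM (1 UMI) there. The intervals of both ratios held 1. Other members were lower in tdTom+ cells of cluster 18, on few UMIs but with intervals that excluded 0. Among them were *Cdx4* (21 against 21 UMIs, log2 fold -2.42, -3.36 to -1.48), *Hoxb1* (16 against 13, -2.12, -3.27 to -0.94) and *Hoxb8* (47 against 21, -1.26, -2.03 to -0.44). For *Hoxb2* and *Hoxb4* the intervals held equality. Whether the cells of cluster 18 were alike in both libraries was not tested.

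The gut clusters differed in their members. *Cdx2* was at 169 and 269 CPM in gut cluster 15, led by *Nepn* and *Apela*, and at 4.33 and 3 CPM in cluster 23, led by *Pyy* and *Pax9*. *Hoxa7* showed the same contrast at 117 and 156 CPM against 0.961 and 1 CPM. *Hoxb1* ran the other way, at 5.43 and 5.77 CPM in cluster 15 and 26.9 and 18.5 CPM in cluster 23. Counted over all gut cells, which pools these clusters and so repeats their contrast, members were found in the same cells. Of thinned tdTom+ gut cells with a UMI of *Hoxb8*, *Hoxb9* or *Hoxa9*, 70.4% (50 of 71) also held *Cdx2*, against 9% (28 of 311) of those without. In tdTom- cells the shares were 75.7% (106 of 140) and 9.72% (31 of 319). *Hoxb4* was found in 32.4% and 29.3% of the gut cells with such a UMI and in 1.61% and 0.940% of those without.

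The same comparison was made in other groups. In presomitic mesoderm-like cells *Cdx2* was found in 69.7% and 68.7% of cells with a UMI of *Hoxb8*, *Hoxb9* or *Hoxa9* and in 37.7% and 29.7% of those without. In cluster 1 the shares were 72.9% and 68.9% with and 26.0% and 20.8% without, and in surface ectoderm-like cells 88.8% and 82.9% with and 29.8% and 23.5% without. For *Hoxb1* in presomitic mesoderm-like cells the shares were 73.1% with and 60.4% without in tdTom+, and 66.3% and 68.8% in tdTom- cells, and their intervals overlapped. These shares describe cells of 1 library, and cells of more than 5000 UMIs were brought to the same depth before counting.

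The deposited table has 2 layers, spliced and unspliced, and for 9 members the layers held less than 50% of the UMIs that the authors' Cell Ranger counts give for the same gene over all barcodes. They comprised *Hoxa3* (1.02%), *Hoxa4* (0.360%), *Hoxa5* (1.49%), *Hoxa6* (26.6%), *Hoxc6* (4.07%), *Hoxc8* (14.2%), *Hoxc9* (10.8%), *Hoxc10* (7.63%) and *Hoxd4* (20.4%). *Hoxc8*, for example, had 27146 Cell Ranger UMIs and 3598 spliced and 255 unspliced ones. All 9 overlap another annotated gene on the same strand, while of the other 29 members with at least 100 Cell Ranger UMIs 6 do. Over those 38 members the median was 100% of the Cell Ranger UMIs, and of 14549 genes 1156 (7.95%) were under 50%. Over all barcodes the layers thus understate these 9 genes. The Cell Ranger counts are sums over all barcodes, so the part missing in each group of cells is not known. Low values of these genes are not read as low expression, and their highest groups and differences between fractions describe the layers only.

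**Figure D2:**
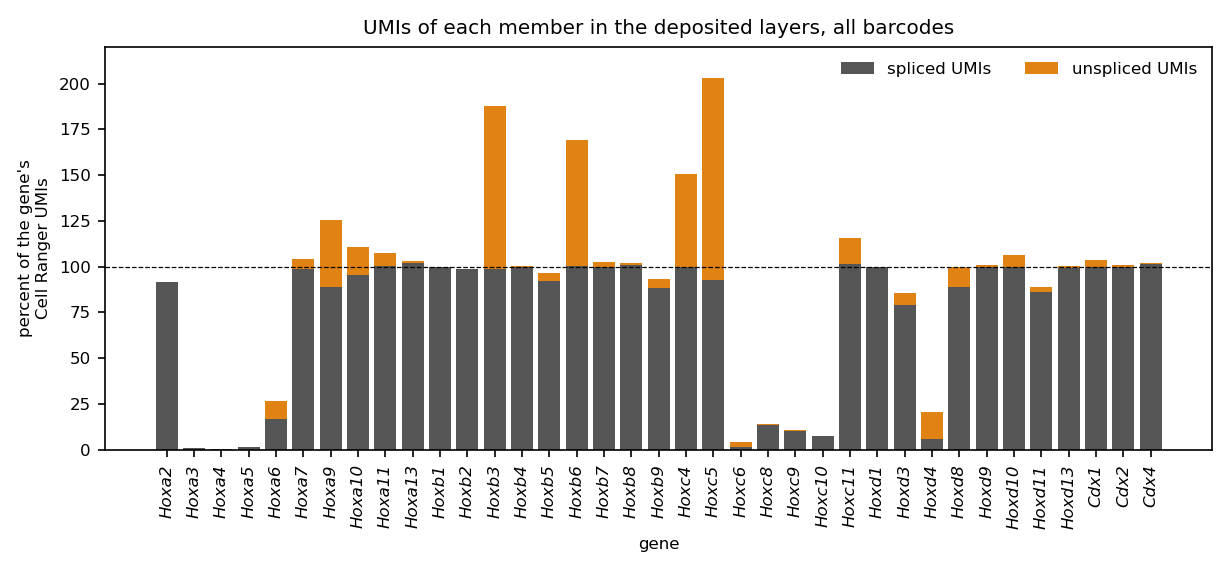
Spliced (grey) and unspliced (orange) UMIs of each member over all barcodes of both libraries, stacked, in percent of the gene's Cell Ranger UMIs (the dashed line marks 100), for members with at least 100 Cell Ranger UMIs. *Hoxa3* to *Hoxa6*, *Hoxc6* to *Hoxc10* and *Hoxd4* are far below the line, and *Hoxb3* (188%) and *Hoxc5* (203%) are far above it through their unspliced UMIs.

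For most members few UMIs were unspliced. The median unspliced share was 5.32% over 33 members in tdTom+ and 4.70% over 31 in tdTom- cells, against 22.3% and 22.2% over all genes with enough UMIs. For *Hoxb2*, whose annotated exons, merged over transcripts, leave no intron, it was 0.288% and 0.248%, and for *Cdx4*, with 7232 intronic bases, 0.285% and 0.250%. *Hoxb3* had 45.4% and 48.7%, *Hoxc4* 32.8% and 33.5%, and *Hoxa9* 29.5% and 28.2%.

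*Hoxb6* differed most between groups. Its unspliced share was 12.5% (10.3 to 15, exact binomial 95% interval) in tdTom+ and 11.9% (9.17 to 15.1) in tdTom- extraembryonic mesenchyme-like cells, and 64.9% (61.0 to 68.6) and 75% (71.7 to 78.2) in neuromesodermal progenitor-like cells. Presomitic mesoderm-like cells stood at 59.5% and 61.8%, cluster 1 at 43.9% and 48.5%, allantois-like cells at 23.2% and 26.7%, and gut endoderm-like cells at 20.4% and 19.6%. The progenitor-like cells thus held 221 spliced and 408 unspliced UMIs of *Hoxb6* in tdTom+ and 178 and 535 in tdTom- cells. In these cells and in spinal cord-like cells (72.7% in tdTom-) the spliced level alone understates the RNA counted for *Hoxb6*. The unspliced share of *Hoxb3* ranged only from 36.1% to 53.2% over the groups of either library. *Hoxc4* had its lowest share in tdTom- spinal cord-like cells at 9.95% (6.10 to 15.1) and its highest in allantois-like cells at 59.6% and 63.1%.

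**Figure D3:**
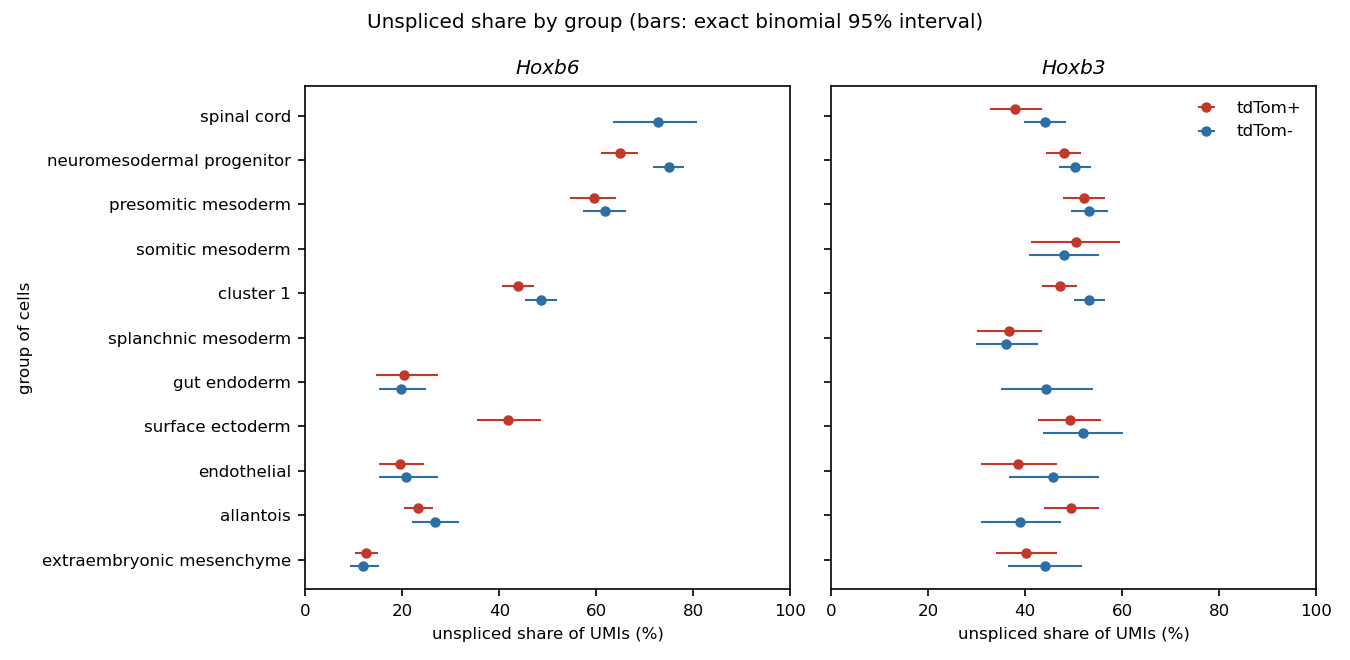
Unspliced share of the UMIs of *Hoxb6* (left) and *Hoxb3* (right) by group of cells, in percent, for tdTom+ (red) and tdTom- (blue) cells. Points are shares and bars exact binomial 95% intervals. For *Hoxb6* the share runs from 11.9% in extraembryonic mesenchyme-like to 75% in neuromesodermal progenitor-like tdTom- cells, while *Hoxb3* stays between 36.1% and 53.2%.

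Between the fractions, few members differed by 2-fold or more where at least 100 UMIs were counted. The counts depend on that minimum, as given in the last section. Of 227 pairs of a member and a group with at least 100 spliced UMIs over both libraries, in 20 groups, 1 pair was at least 2-fold higher in tdTom+ cells (background over all genes 0.308%) and 3 were at least 2-fold lower (0.558%). For 189 pairs (83.3%) the log2 fold lay within 0.5 of equality, against 94.1% of the pairs over all genes. Those pairs were not matched to the members for UMI number, on which counting error depends, so the shares are not compared further. In neuromesodermal progenitor-like cells, 0 of 22 members were past 2-fold (background 0.177% higher and 0.354% lower), with a median log2 fold of -0.11 against -0.02 over all genes. In presomitic mesoderm-like cells the median was -0.05 over 21 members, in cluster 1 -0.03 over 26 and in endothelial-like cells 0.06 over 18. The interval of *Cdx1* in the progenitor-like cells (log2 fold 0.26, 0.17 to 0.35) and that of *Cdx4* (-0.20, -0.25 to -0.14) excluded 0 on opposite sides.

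**Figure D4:**
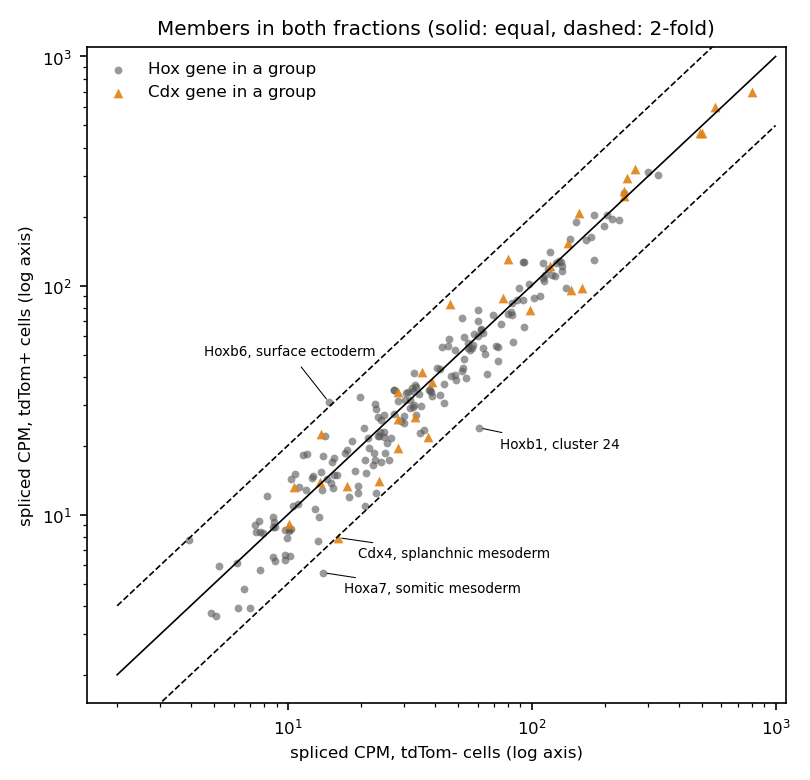
Spliced CPM of each member in each group of cells, tdTom- on the x axis and tdTom+ on the y axis, both on log scales, for the 227 pairs with at least 100 UMIs. Grey points are Hox genes and orange triangles Cdx genes, the solid line marks equal levels and the dashed lines 2-fold. The 4 named pairs lie on or past the dashed lines, and the rest lie between them.

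The pair that was higher in tdTom+ cells was *Hoxb6* in surface ectoderm-like cells, at 30.9 CPM (132 UMIs) against 14.8 CPM (46 UMIs), a log2 fold of 1.07 (0.57 to 1.58, background 0.107%). Lower in tdTom+ cells was *Hoxb1* in cluster 24, led by *Lefty2* and *Isl1*, at 24 CPM (75 UMIs) against 60.7 CPM (82 UMIs), a log2 fold of -1.34 (-1.81 to -0.87, background 0.822%). Under the minimum of 100 UMIs, *Cdx4* (54 against 3 UMIs, 2.96, 1.33 to 5.28) and *Hoxb9* (26 against 2 UMIs, 2.49, 0.49 to 5.61) ran the other way in this cluster. Whether its cells were alike in both libraries was not tested. *Hoxa7* in somitic mesoderm-like cells was at 5.58 CPM (27 UMIs) against 13.9 CPM (74 UMIs), with -1.32 (-2.01 to -0.67, background 0.506%). In forebrain and midbrain-like cells it was at 3.60 and 2.58 CPM. *Cdx4* in splanchnic mesoderm-like cells was at 7.94 CPM (62 UMIs) against 16.0 CPM (103 UMIs), with -1.01 (-1.49 to -0.54, background 0.457%), and at 8.18 CPM in tdTom+ forebrain and midbrain-like cells. Under other settings 3 of these 4 values came under 2-fold. *Hoxb6* was at 0.85 with unspliced UMIs added, *Hoxa7* at -0.90 with called doublets kept, and *Cdx4* at -0.68 with doublets kept and just under 2-fold on a total without mitochondrial, globin, ribosomal protein and sex-linked genes.

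Smaller differences ran mostly in 1 direction in several groups. In somitic mesoderm-like cells 11 of 12 members had a log2 fold below 0 (background 57.2%), with a median of -0.61 against -0.03 over all genes. *Hoxb4* was at 41.0 against 65.3 CPM (-0.67, -0.93 to -0.42) and *Hoxb9* at 12.4 against 23.0 CPM (-0.89, -1.36 to -0.43). *Hoxa2*, *Hoxb1* and *Hoxb2* had log2 folds from -0.14 to -0.11 in these cells, and the Cdx genes and the members of higher paralog number from -1.32 to -0.55. Since the same cells and libraries carry all members, these are not independent counts.

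In gut endoderm-like cells 17 of 19 members were below 0 (background 58.3%), with a median of -0.52 against -0.04. *Cdx2* was at 97.1 against 160 CPM (-0.72, -0.87 to -0.57), *Cdx4* at 95.9 against 145 CPM (-0.60, -0.75 to -0.44) and *Hoxb8* at 56.8 against 83.9 CPM (-0.56, -0.76 to -0.36). *Cdx1* was the exception among the Cdx genes, at 22.5 against 13.7 CPM (0.72, 0.32 to 1.13). The share of thinned gut cells with a UMI of *Hoxb8*, *Hoxb9* or *Hoxa9* was 18.6% (14.8 to 22.9) of 382 tdTom+ and 30.5% (26.3 to 34.9) of 459 tdTom- cells. Within gut cluster 15 alone, 15 of 16 members were below 0 (background 57.8%), with a median of -0.47. A different share of posterior cells and a different level per cell cannot be told apart in the sums.

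Spinal cord-like cells had 13 of 16 members below 0 (background 56.6%), with a median of -0.38 against -0.03. *Hoxa2* was at 39.6 against 53.8 CPM (-0.44, -0.62 to -0.27) and *Hoxc4* at 7.70 against 13.3 CPM (-0.79, -1.19 to -0.40), while *Cdx1* was at 34.2 against 28.3 CPM (0.27, 0.06 to 0.49). Surface ectoderm-like cells ran the other way, with 16 of 18 members above 0 (background 42.4%) and a median of 0.34 against -0.03. There *Cdx1* was at 130 against 79.7 CPM (0.71, 0.49 to 0.93), *Cdx2* at 323 against 264 CPM (0.29, 0.16 to 0.42) and *Hoxb8* at 126 against 92.5 CPM (0.45, 0.24 to 0.66). The share of cells with a posterior Hox UMI was 65.7% (59.4 to 71.6) and 57.8% (50.5 to 64.9), with overlapping intervals. In these groups too, the part of library and sampling along the axis in the differences was not tested.

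**Figure D5:**
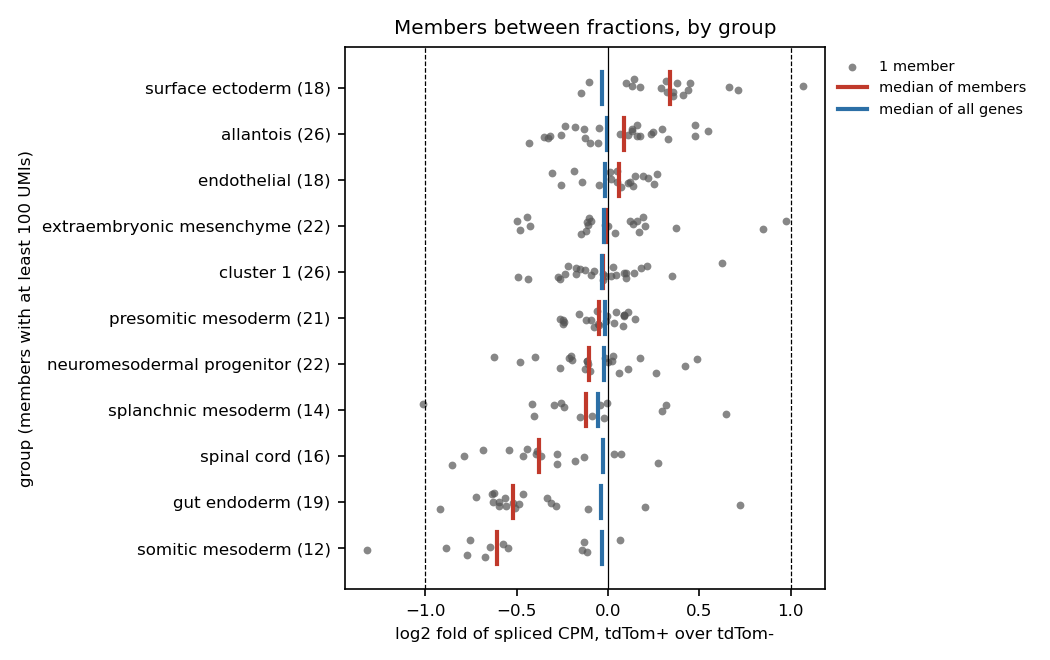
Log2 fold of spliced CPM, tdTom+ over tdTom- cells, for each member with at least 100 UMIs (grey points) in 11 groups, whose number of members stands in brackets. Red bars are medians of the members, blue bars medians of all genes tested, and dashed lines mark 2-fold. The red bars lie left of the blue ones at -0.61 in somitic mesoderm-like, -0.52 in gut endoderm-like and -0.38 in spinal cord-like cells, and right of them at 0.34 in surface ectoderm-like cells.

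In the extraembryonic mesenchyme-like cells *Cdx2* was at 83.2 against 46.2 CPM (log2 fold 0.85, 0.66 to 1.03) and *Hoxa10* at 7.77 against 3.95 CPM (0.98, 0.35 to 1.64), both higher in tdTom+ cells but under 2-fold. Over 22 members the median there was -0.01. In cluster 20 of this class, led by *Postn* and *Col1a1*, *Cdx2* was at 39.2 against 13.2 CPM (1.57, 1.03 to 2.14), past 2-fold where 0.349% of all genes were.

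The allantois-like cells of the fractions lay mostly in different clusters. All 667 tdTom+ cells were in cluster 7, led by *Tbx4* and *Pitx1*, and of the 351 tdTom- cells 104 were in cluster 7 and 247 in cluster 25, led by *Cdkn1c* and *Phlda2*. Over the whole class, 0 of 26 members were past 2-fold (background 0.207% higher and 0.548% lower) and the median log2 fold was 0.09. Within the host, the clusters differed in their members. *Cdx4* was at 248 CPM in cluster 7 and 34.0 CPM in cluster 25 (log2 fold 2.87, 2.59 to 3.15), *Hoxb9* at 107 and 24.2 CPM (2.15, 1.79 to 2.51) and *Hoxd1* at 53.3 and 11.3 CPM (2.24, 1.72 to 2.79). *Hoxa13* ran the other way, at 14.9 and 37.0 CPM (-1.31, -1.97 to -0.70), while *Hoxa10* was at 119 and 108 CPM (0.14, -0.11 to 0.38). The tdTom+ cells of cluster 7 lay between these host clusters for *Cdx4* at 78.6 CPM, *Hoxb9* at 38.5 CPM and *Hoxa13* at 31.8 CPM. Compared within cluster 7 alone, *Hoxa13* was at least 2-fold higher in tdTom+ cells and *Hoxb9*, *Hoxc8*, *Hoxd1*, *Hoxd8* and *Cdx4* were at least 2-fold lower, with a median of -0.49 over 26 members. Of all genes tested there, 3.8% were higher and 1.33% lower past 2-fold. For *Cdx4*, *Hoxb9* and *Hoxa13* both the direction and the size of the difference therefore depend on which host cells stand for the tdTom+ allantois-like cells. *Hoxa11* was higher in tdTom+ cells over the class, at 72.2 against 52.0 CPM (0.47, 0.28 to 0.67). Within cluster 7 it was higher too, against 43.6 CPM (0.73, 0.39 to 1.09).

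Regulators of Hox genes were compared in the same way. The 21 Polycomb and Trithorax genes, which keep Hox genes off or on, gave 281 pairs with 1 higher and 0 lower. This was *Phc1* in cluster 18, led by *Fcer1g* and *Spi1*, at 24 against 11 CPM (log2 fold 1.12, 0.30 to 2.06), on 13 tdTom- UMIs, in a group where 3.48% of all genes were higher past 2-fold. The 14 genes of posterior signals (WNT, FGF, retinoic acid and their readouts) gave 163 pairs with 0 higher and 1 lower, *Aldh1a2* in forebrain and midbrain-like cells at 18.3 against 38.0 CPM (-1.05, -1.49 to -0.63, background 0.454%). Their median log2 fold was -0.46 in gut endoderm-like, -0.23 in somitic mesoderm-like, -0.23 in spinal cord-like and 0.29 in surface ectoderm-like cells. A list of 7 other homeobox genes (*Evx2*, *Gsx1*, *Gsx2*, *Pdx1*, *Mnx1*, *Gbx1*, *Gbx2*) gave 12 pairs and 0 past 2-fold.

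Across 33 clusters with at least 50 cells, the genes whose level was most like that of the Cdx genes were searched among 10942 genes with at least 500 UMIs. For *Cdx4* the Pearson correlation of log2(CPM + 1) was highest with the members *Hoxb9* (r = 0.97), *Hoxa7* (0.93) and *Hoxa9* (0.91) and, outside the set, with *Hoxaas3* (0.94), *Evx1os* (0.94), *Hoxb5os* (0.93), *Evx1* (0.92) and *Gm53* (0.90). For *Cdx2* it was highest with the members *Hoxa7* (0.95) and *Hoxa9* (0.90) and, outside the set, with *Evx1os* (0.91), *Evx1* (0.90), *Gm53* (0.89), *Hoxaas3* (0.87) and *Naaa* (0.86). *Cdx1* was most like *Hoxaas3* (0.94), *Hoxb5os* (0.89), *Evx1os* (0.85), *Fzd10* (0.82) and *Evx1* (0.81). Clusters share libraries and depth and are not independent samples, so these values are a description and carry no test.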

How the data were processed

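Cells of 6 pooled chimeric embryos were sorted into a tdTom+ and a tdTom- fraction, and 1 droplet-based library with 3′ UMIs was made of each. Alignment was to mm10 (GRCm38), by Cell Ranger 3.0.2, and the authors kept droplets that emptyDrops called as cells. With velocyto they assigned molecules to a spliced and an unspliced layer. Both layers were deposited as UMI counts of every gene in every cell, not normalized, and 0 of the values checked were not whole numbers. A deposited table of the authors gives the Cell Ranger counts per gene, summed over all cells. The authors' cell types were not used here.

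Scrublet was run on each library by itself and called doublets (4.09% of tdTom+ and 5.73% of tdTom- cells), which took part in the clustering and were left out after it, and so was 1 cluster of 425 cells of which 92.2% had been called. Leiden clustering, at resolution 1.5, used the 20 nearest neighbours in 50 components of 1831 variable genes. The 42 members, 8 antisense genes of the Hox clusters and 51 genes of the other lists were left out of the clustering. A cluster took a class name where 3 or more of its fixed markers were 2-fold or more above the remaining cells, after 10 CPM had been added. Clusters where another class was level or led the top genes stayed unnamed. Names were thus rebuilt here, and may differ from the study's. The members, lists and groups were chosen with earlier results of these data known.

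Spliced UMIs were summed per group and fraction as CPM. Intervals are exact (Poisson for levels, conditional binomial for ratios, binomial for shares) at 95% and cover counting error only, and PCR and sampling of embryos add error they do not show. Cells of 1 library are not replicates, so no test between fractions was run and no p-value is given. Comparisons between fractions and with the forebrain and midbrain level needed 50 cells of each fraction in a group. Pairs between fractions needed 100 spliced UMIs over both. The highest group of a gene was sought among groups with 50 cells in that library. All members could be named. From the other lists, genes past 2-fold were named, and for each Cdx gene the 5 other genes most like it. Members named beside such genes stand outside that rule. Interval functions were checked against simulated counts with known answers. Gene positions come from the GENCODE annotation of GRCm38. Software was scanpy 1.11.5, leidenalg 0.10.2, igraph 0.11.9, scikit-learn 1.9.0, scipy 1.17.1, matplotlib 3.10.9, pandas 2.3.3 and numpy 2.4.6 under Python 3.11.15. Alternatives added unspliced UMIs, kept doublets, thinned cells, changed the resolution, the UMI minimum or the reference group, or subtracted the forebrain and midbrain level. Results for 1 member and 1 gene of the other lists are not reported here one by one, and counts over all members include that member.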

Additional observations from a re-analysis of the deposited data

Results flagged for a closer look

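The antisense and opposite-strand genes of the Hox clusters were left out of the members, and 4 of them, each with at least 100 UMIs in a group, carried signal there above the level of forebrain and midbrain-like cells. Members of the same set with fewer UMIs are not described here. *Hoxaas3* reached 1267 CPM in tdTom- neuromesodermal progenitor-like cells (1177 in tdTom+), against 9.4 CPM in tdTom- forebrain and midbrain-like cells. *Hoxb5os* reached 441 CPM in the same tdTom- cells (303 in tdTom+), against 3.36 CPM. *Gm53* reached 22.2 CPM (16.4 in tdTom+), against 0.387 CPM. *Hotairm1* was highest in tdTom- somitic mesoderm-like cells at 180 CPM, with 177 CPM in tdTom+ cells, against 5.04 and 7.20 CPM in forebrain and midbrain-like cells. These genes were not compared between fractions.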

How the results depend on the processing

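The 277 pairs of a member and a group above the forebrain and midbrain level became 200 to 307 under the alternatives tried, and 220 with cardiomyocyte-like cells as the reference. Of the 4 values past 2-fold between fractions, 22 alternatives gave a value, 21 within the interval reported, 0 reversed and 1 outside it in the same direction (*Hoxa7* in somitic mesoderm-like cells, -2.51 after subtraction of the forebrain and midbrain level). The 22 include the minimum of 30 UMIs, which cannot change these 4 values and repeats each of them. None of the 4 had a value after thinning to 5000 UMIs or with a minimum of 300 UMIs. *Hoxb1* in its cluster had none at a Leiden resolution of 2.5. The alternatives share UMIs with the reported values, so staying within the interval is not an independent check. *Cdx4* in splanchnic mesoderm-like cells gave no value after the subtraction. Its tdTom+ level there (7.94 CPM) lay under that of forebrain and midbrain-like cells (8.18 CPM). Within the interval, 2-fold was nevertheless lost for *Hoxb6* in surface ectoderm-like cells (0.85 with unspliced UMIs added), for *Hoxa7* in somitic mesoderm-like cells (-0.90 with doublets kept) and for *Cdx4* in splanchnic mesoderm-like cells (-0.68 with doublets kept, and by a small margin on the reduced total). The counts are small and moved more. Pairs at least 2-fold higher in tdTom+ cells (1 reported) were 0 with unspliced UMIs added, 4 with doublets kept, 0 after thinning to 5000 UMIs, 2 at a Leiden resolution of 2.5, 11 with a minimum of 30 UMIs, 0 with a minimum of 300 and 2 after the subtraction. Pairs at least 2-fold lower (3 reported) were 3 with unspliced UMIs added, 4 with doublets kept, 2 on a total without mitochondrial, globin, ribosomal protein and sex-linked genes, 2 at the resolution of 2.5, 1 after thinning, 14 with a minimum of 30, 0 with a minimum of 300 and 10 after the subtraction. In the other lists, 3 pairs past 2-fold became 5 with unspliced UMIs added, 5 with doublets kept, 1 after thinning, 1 at the resolution of 2.5, 14 with a minimum of 30, 1 with a minimum of 300 and 79 after the subtraction. Members highest in tdTom- neuromesodermal progenitor-like cells fell from 11 to 7 at the resolution of 2.5, and were 13 with unspliced UMIs added. Thinning and the higher minimum leave fewer pairs to count, and for the other changes the cause was not tested. In 2 alternatives added after the data had been seen, single clusters in place of classes gave 3 higher and 8 lower pairs and 5 in the other lists, and the share of neuromesodermal progenitor-like cells with *Cdx2* over all UMIs was 98.3% in tdTom+ and 96.7% in tdTom- cells. No paired analysis was possible because each fraction is 1 library, and no library could be left out for the same reason.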
